A study of Mus musculus with 12 samples.

Results

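The Dlk1-Dio3 imprinted cluster was described in 12 mouse iPS cell clones through every non-control array probe whose transcript accession belonged to Dlk1, Meg3, Mirg, Rtl1 or Dio3. These were 8 of 55681 probes: 2 for Dlk1, 3 for Meg3 and 1 each for Mirg, Rtl1 and Dio3. The cluster lies on mouse chromosome 12. Its protein-coding genes Dlk1, Rtl1 and Dio3 are known to be expressed from the paternal allele, and its long noncoding RNAs, among them Meg3 (also called Gtl2) and Mirg, from the maternal allele, under the control of a differentially methylated region between Dlk1 and Meg3. Silencing of the maternal noncoding RNAs has been described as a recurrent defect of mouse iPS cells. Between Dlk1 and Dio3 the RefSeq annotation (GRCm38.p6) listed 103 genes, counting both, of which 61 were microRNA genes, 19 snoRNA genes, 16 long noncoding RNA genes and 3 protein-coding genes.

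The 12 clones were Nanog-GFP reporter iPS cells of male sex and of mixed C57BL6, DBA and 129S4 background. They comprised 6 Aid+/+ clones (the series of 967B2, 967B4 and 967B6, and that of 979B1, 979B3 and 979B4) and 6 Aid-/- clones (the series of 979F1, 979F2 and 979F3, and that of 981E1, 981E4 and 981E5), each hybridised to 1 one-colour array. According to the methods, embryonic fibroblasts were reprogrammed with retroviruses that carried Klf4, Sox2 and Oct3/4, some also c-Myc, and GFP-positive colonies were picked and grown first on feeder cells and then on gelatin up to passage 6, under puromycin per the labels. Each clone derives from a picked colony, so p-values measure the spread between clones, several of which came from the same reprogramming experiment, and not between mice.

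Series 967B was scanned on slide 1, series 979F on slide 2, and the 979B and 981E1 series on slide 3, so both genotypes shared a slide only on slide 3 and a series number only in 979. Between 31700 and 33674 probes were well above background on an array, that is, marked by the scanner software as clearly brighter than the local background. Values are log2 of the processed intensity relative to the 75th percentile of the array, so that 0 is that percentile. The 10 pluripotency marker probes were detected on every array. None was called between genotypes, against 0.0611% of all probes (limma, adjusted p under 0.05). Of the 10, 1 was higher in Aid-/- clones, and the median difference was -0.12. An unadjusted p under 0.05 (limma) was found for 3 of them, against 13.6% of all probes. Nor was any of the 13 probes of differentiation markers called, 11 of them detected on at least 1 array (median difference over the 13 probes -0.01). The summed signal of these markers (log2, 1 probe per gene) ranged from 4.21 to 4.79 in Aid+/+ clones. In Aid-/- clones the range was wider, from 3.29 to 5.49.

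The RefSeq promoter windows of Dlk1, Meg3 and Mirg run from 250 bases before to 50 bases after the annotated start. They are shown because Meg3 and Mirg varied together over 12 clones and Dlk1 did not pass with either over 11 clones. All are on the plus strand of GRCm38.p6, with the CpG dinucleotides (CG), the sites of the methylation that imprints carry, in capitals. The windows lie at chr12:109452573-109452872 (Dlk1), chr12:109540746-109541045 (Meg3, the upstream of 2 annotated starts) and chr12:109734731-109735030 (Mirg).
Dlk1: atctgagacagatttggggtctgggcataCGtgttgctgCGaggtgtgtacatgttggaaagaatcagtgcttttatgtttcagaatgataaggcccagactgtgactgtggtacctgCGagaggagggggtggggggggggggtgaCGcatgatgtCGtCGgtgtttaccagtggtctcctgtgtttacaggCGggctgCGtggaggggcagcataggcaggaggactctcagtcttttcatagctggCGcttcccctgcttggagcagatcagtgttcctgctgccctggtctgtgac
Meg3: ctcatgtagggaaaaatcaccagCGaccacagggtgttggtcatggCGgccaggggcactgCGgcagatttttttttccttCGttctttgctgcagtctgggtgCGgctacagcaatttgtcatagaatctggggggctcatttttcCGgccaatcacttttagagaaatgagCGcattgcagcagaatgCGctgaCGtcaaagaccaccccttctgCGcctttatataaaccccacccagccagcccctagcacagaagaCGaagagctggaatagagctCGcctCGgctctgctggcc
Mirg: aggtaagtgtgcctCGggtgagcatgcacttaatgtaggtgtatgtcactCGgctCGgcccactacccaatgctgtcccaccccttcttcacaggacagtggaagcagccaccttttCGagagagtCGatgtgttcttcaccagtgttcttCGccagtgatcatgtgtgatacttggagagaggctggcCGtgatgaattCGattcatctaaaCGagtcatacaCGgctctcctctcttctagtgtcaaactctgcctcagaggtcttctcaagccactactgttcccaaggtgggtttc
These windows held 9, 13 and 10 CpG dinucleotides, against a median of 7 over 32851 promoter windows. The hexamer TGCCGC, searched on both strands and known as the motif of the imprint-protecting zinc finger protein Zfp57, occurred 1 time in the Meg3 window and not in those of Dlk1 and Mirg, and 11.6% of all windows held it. Methylation was not measured on these arrays, and no relation of these sequences to the signals was tested.

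Meg3, the noncoding RNA that lies first among the maternally expressed RNAs of the cluster, varied more between clones than any other member. Its brightest probe (A_51_P455997) gave 1.52, -7.05 and -0.14 in 967B2, 967B4 and 967B6. It gave -1.04, 1.04 and -1.81 in 979B1, 979B3 and 979B4. In the Aid-/- clones 979F1, 979F2 and 979F3 it gave -2.47, -3.16 and -5.35, and in 981E1, 981E4 and 981E5 it gave 0.31, 2.85 and -1.58. The signal was not well above background in 967B4 and 979F3, 1 clone of each genotype. The highest clone, 981E4, was at least 948-fold above 967B4, where the lower value was taken as the floor of the array, the lowest signal among its probes well above background. The SD over the 12 clones was 2.85, and 0.0366% of the 32807 probes well above background on at least 6 arrays had a larger SD.

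Meg3 also varied within each clone series. Within the 981E1 series the highest clone was 21.6-fold above the lowest, and within 979B 7.21-fold. Within 967B the ratio of 967B2 to 967B4 was at least 377-fold. The 3 clones of 979F were the 3 lowest after 967B4. The other Meg3 probes were dimmer, well above background on 6 arrays (A_52_P196568) and 5 arrays (A_55_P2033407). Over the 12 clones they followed the brightest probe with r = 0.71 and r = 0.95. All 3 had their highest value in 981E4. The probe A_52_P196568, annotated to a different Meg3 transcript from the others, departed from them in 979F1. There it was well above background at -2.94, its second highest value.

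Mirg, the noncoding host of microRNA genes further along the cluster, gave -0.10, -4.73 and -1.29 in 967B2, 967B4 and 967B6 and -2.78, -0.77 and -2.82 in 979B1, 979B3 and 979B4. It gave -3.58, -3.75 and -4.15 in 979F1, 979F2 and 979F3 and -1.61, 1.21 and -3.43 in 981E1, 981E4 and 981E5. It was well above background in all clones but 967B4. As for Meg3, 981E4 was the highest clone and 967B4 the lowest, and the genotypes overlapped over most of the range. The highest clone was at least 61.2-fold above 967B4. In RefSeq, 10 microRNA genes lie within the Mirg transcript. These microRNAs were not measured on these arrays.

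**Figure D1:**
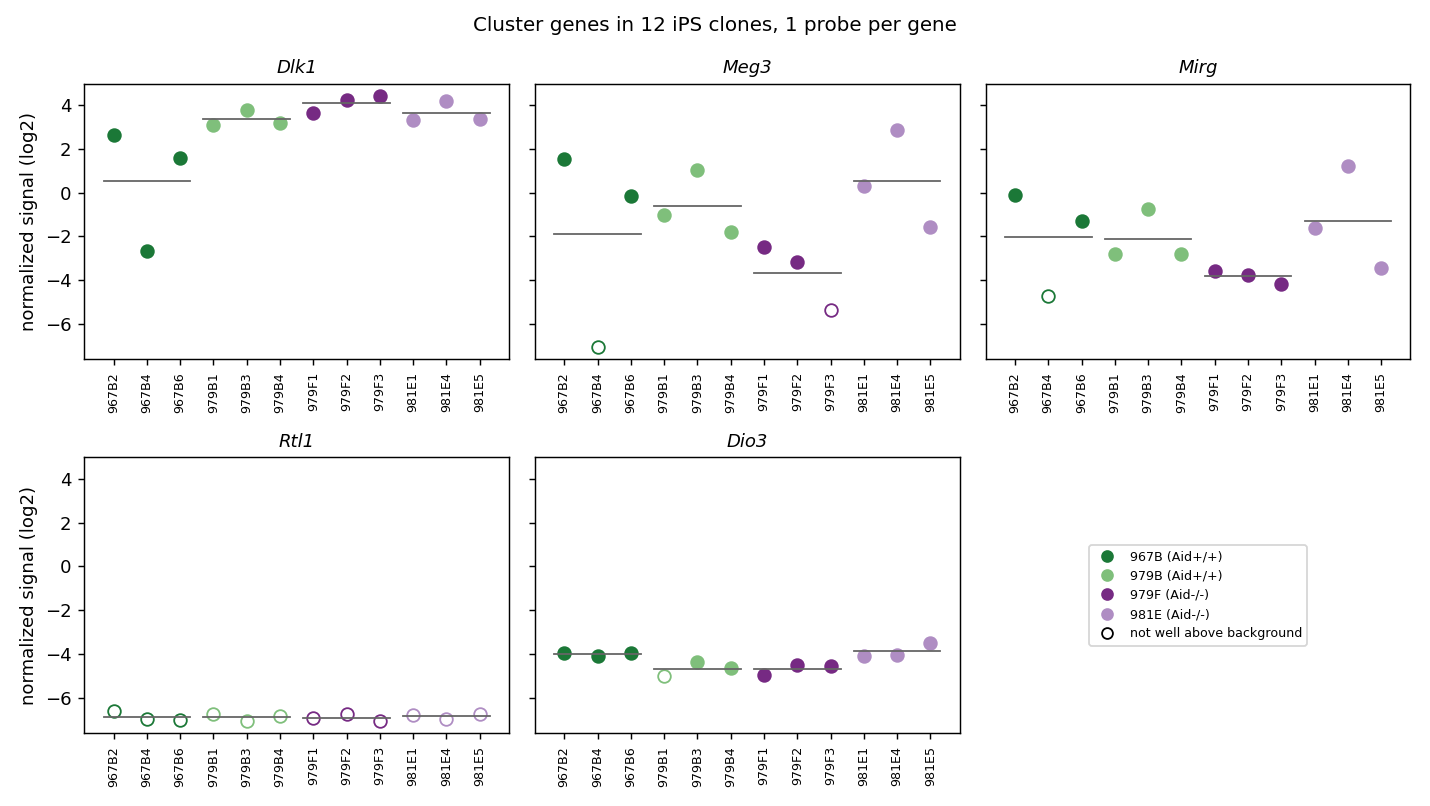
Normalized signal (log2, relative to the 75th percentile of the array) of the probe of each cluster gene that was well above background on most arrays, in each of the 12 clones. Colours mark the clone series and genotype, grey lines the mean of 3 clones, and open circles a signal not well above background. Meg3 ranged from -7.05 to 2.85, while Dio3 ranged from -5.03 to -3.49.

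Meg3 and Mirg varied together across clones. Over the 12 clones Pearson r was 0.93 (permutation p = 4e-05, adjusted p = 0.00024 over 6 pairs of cluster genes) and Spearman rho was 0.99 (permutation p = 1e-05, the smallest that 100000 resamples can give, adjusted p = 6e-05). Without 967B4 and 981E4, the clones farthest from the Meg3 median, r was 0.93. It was 0.93 after the mean of each series was taken off and 0.98 over the 6 clones of slide 3. This was the only one of the 6 pairs that passed.

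**Figure D2:**
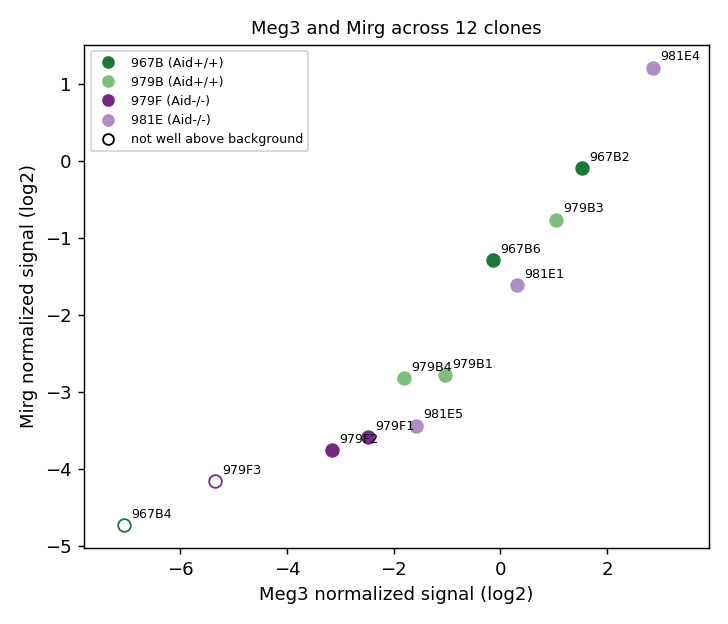
Mirg against Meg3 normalized signal (log2), 1 point per clone, coloured by clone series. Open circles are clones in which Meg3 was not well above background, and the order of the clones was nearly the same for both genes (rho = 0.99).

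Rtl1, a retrotransposon-derived gene expressed from the paternal allele, was not well above background in any clone (-7.05 to -6.59), so its fold changes are left out. Of the other transcripts of the cluster, looked up after these values were seen, the antisense transcript of Rtl1 (6430411K18Rik) was well above background in 981E4 (-2.78) and 967B2 (-4.03), the 2 clones with the highest Meg3. In the remaining clones it was between -7.18 and -5.27. Dio3os, the transcript opposite Dio3, was well above background in 2 clones, 967B6 and 979B3. The noncoding transcript 3110009F21Rik was well above background in 979F1 alone (-4.57), where Meg3 was at -2.47. The file annotation matched no probe to Rian.

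Dlk1, which encodes a membrane protein related to the Notch ligands and is expressed in fibroblasts and preadipocytes, was well above background in every clone. The probe A_66_P117477 gave 2.61, -2.68 and 1.59 in 967B2, 967B4 and 967B6 and 3.07, 3.79 and 3.18 in 979B1, 979B3 and 979B4. It gave 3.65, 4.22 and 4.40 in 979F1, 979F2 and 979F3 and 3.34, 4.17 and 3.36 in 981E1, 981E4 and 981E5. The clone 967B4 stood apart on the low side, and the remaining 11 clones lay between 1.59 and 4.40. The highest clone, 979F3, was 136-fold above 967B4. The second probe (A_55_P2105371) followed the first with r = 0.99 over those 11 clones. Its values ran from -4.67 in 967B4, where it was not well above background, to 1.55 in 979F3.

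Because 967B4 lay apart, relations of Dlk1 were computed over the other 11 clones. Dlk1 and Meg3 gave r = -0.33 (permutation, adjusted p = 0.476) and rho = -0.38 (adjusted p = 0.297), and Dlk1 and Mirg gave r = -0.24 (adjusted p = 0.476). Without 967B6 and 979F3 the r of Dlk1 and Meg3 was -0.08. Among the 6 clones of slide 3, however, r was 0.91 for Dlk1 with Meg3 and 0.92 for Dlk1 with Mirg, and with the series means taken off r was 0.49 and 0.69. Series 979F, on slide 2, had the highest mean Dlk1 (4.09) and the lowest mean Meg3 (-3.66).

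Dlk1 moved with markers of fibroblasts, the cell type from which the clones were made. Per the methods, the last passages before RNA isolation were on gelatin so as to remove the feeder cells of earlier passages. Of the 10 markers, 9 were well above background on at least 6 arrays (Col1a1, Col1a2, Col3a1, Col6a1, Thy1, Postn, Dcn, Pdgfrb and S100a4), while Lum, encoding a proteoglycan of the fibroblast matrix, was well above background on none. Over the 11 clones all 9 correlated with Dlk1, with r from 0.86 to 0.96 (permutation, adjusted p 0.000135 to 0.00129 over 27 relations of these markers to Dlk1, Meg3 and Mirg) and rho from 0.87 to 0.95. Without 967B6 and 979F3, r was 0.73 to 0.89, and on slide 3 it was 0.83 to 0.96. These relations were computed after the values of Dlk1 had been seen.

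The collagen gene Col1a2, for example, gave 2.16, -3.79 and 0.75 in 967B2, 967B4 and 967B6. It gave 1.97, 2.71 and 2.11 in 979B1, 979B3 and 979B4 and 3.27, 3.68 and 3.84 in 979F1, 979F2 and 979F3. It gave 2.88, 3.50 and 2.45 in 981E1, 981E4 and 981E5, with 967B4 lowest and 979F3 highest, as for Dlk1. The summed signal of the 10 markers (log2, 1 probe per gene) ranged from 0.95 to 5.35 in Aid+/+ clones and from 4.97 to 6.34 in Aid-/- clones. Without 967B4 the Aid+/+ range was 3.78 to 5.35. Fewer cells of a type and less RNA per cell cannot be told apart in such samples, and the part of these markers in the Dlk1 values was not tested.

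Meg3 and Mirg did not pass with any of the 9 fibroblast markers (permutation, adjusted p 0.58 to 0.656 for Meg3 and 0.609 to 0.708 for Mirg). For Col1a1, Col1a2, Dcn and S100a4, in which 967B4 also lay apart, the other 11 clones were used, and r was -0.33 to -0.26 for Meg3 and -0.22 to -0.13 for Mirg. For the other 5 markers, over all 12 clones, r was 0.23 to 0.38 for Meg3 and 0.14 to 0.29 for Mirg. Without 967B4 and 981E4 the values of these 5 with Meg3 were -0.67 to -0.56. On slide 3 alone, r was 0.66 to 0.99 for Meg3 and 0.63 to 0.97 for Mirg over 6 clones. With series means taken off it was 0.58 to 0.88 and 0.74 to 0.88. The clones 979F2 and 979F3 had the highest Dlk1 and marker sums with low Meg3, whereas 967B4 was lowest in Dlk1, Meg3, Mirg and the marker sum. In 981E4 the marker sum (6.13) and Dlk1 (4.17) were nearly as high, with the highest Meg3 (2.85).

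**Figure D3:**
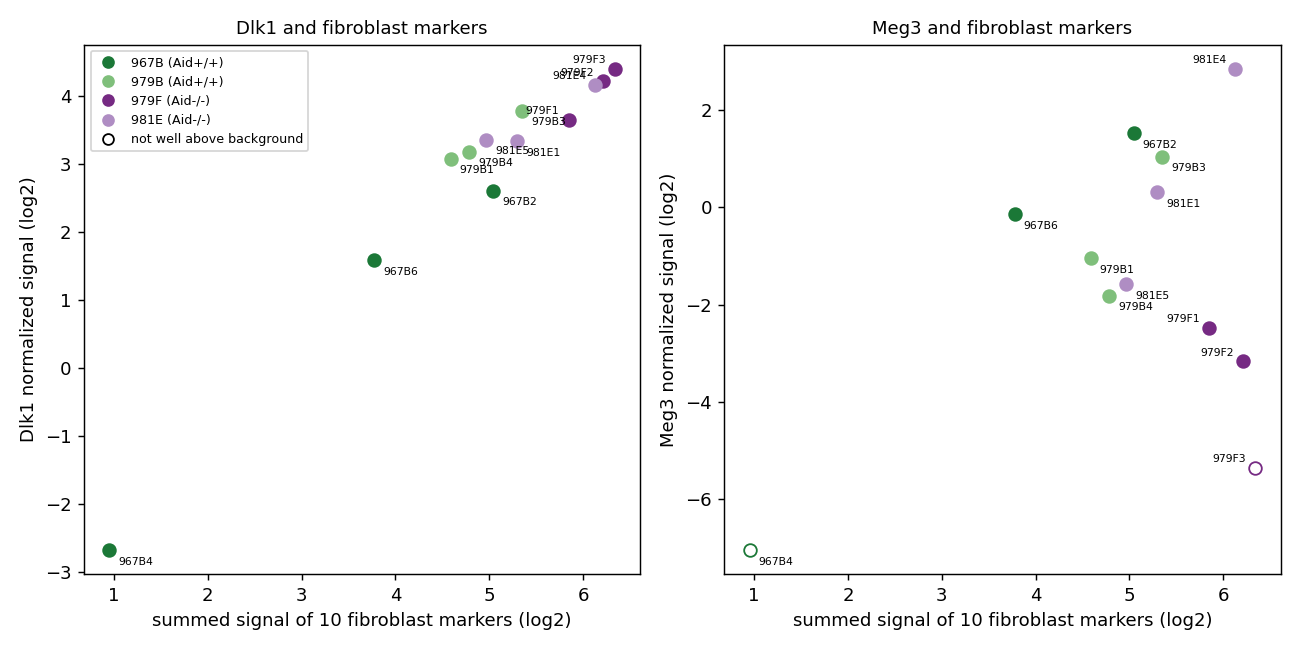
Normalized signal of Dlk1 (left) and Meg3 (right) against the log2 of the summed signal of 10 fibroblast markers, 1 point per clone, coloured by clone series. Open circles are clones in which the gene was not well above background. Dlk1 rose with the marker sum from 967B4 (0.95) to 979F3 (6.34). Meg3 was low in these clones but highest in 981E4 (marker sum 6.13).

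Dio3, which encodes the deiodinase that inactivates thyroid hormone, had an SD of 0.45 over the 12 clones, and 24.2% of the 32807 probes well above background on at least 6 arrays had a larger one. It gave -3.94, -4.12 and -3.97 in 967B2, 967B4 and 967B6 and -5.03, -4.35 and -4.62 in 979B1, 979B3 and 979B4. It gave -4.96, -4.50 and -4.55 in 979F1, 979F2 and 979F3 and -4.09, -4.03 and -3.49 in 981E1, 981E4 and 981E5. The clones of the 967B and 981E1 series were all higher than those of 979B and 979F, although the signal was not well above background in 979B1. Dio3 did not pass with Meg3 (r = 0.26) or Mirg (r = 0.33; permutation, adjusted p = 0.476 for both).

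No cluster probe was called between the genotypes. Over all probes 0.0611% were called at an adjusted p under 0.05 (limma, Benjamini-Hochberg), and 2.18% of the probes measured on every array had genotypes that did not overlap, against 0 of the 8 cluster probes. Dlk1 showed the largest difference, with 3.86 ± 0.47 in Aid-/- clones and 1.93 ± 2.37 in Aid+/+ clones (SD, n = 6 each). The difference was 1.93 (SE 0.90, 95% confidence interval -0.04 to 3.89), or 3.81-fold (limma, adjusted p = 0.378). The second probe gave 1.77 (SE 0.78, limma, adjusted p = 0.346), the only one of the 8 with an unadjusted p under 0.05, which 13.6% of all probes had. Without 967B4 the 2 differences were 1.01 and 0.99.

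The fitted genotype difference in Dlk1 took smaller values within experiment 979 and on slide 3, comparisons that both left out series 967B. The mean of A_66_P117477 was 0.51 in 967B and 3.35 in 979B. The difference was 0.74 within experiment 979, whose genotypes lay on different slides, and 0.27 on slide 3 (limma, adjusted p = 0.206 and 0.744). Fibroblast markers lay in the same direction. Of their 11 probes, 10 were higher in Aid-/- clones, with a median difference of 1.78. None was called, and 8 of the 11 had an unadjusted p under 0.05, against the 13.6% of all probes. Most of these probes varied together with Dlk1, so they are not 11 separate observations and the 2 shares cannot be compared as a test. Without 967B4 the median of the summed marker signal was 4.79 in Aid+/+ clones and 5.99 in Aid-/- clones.

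Meg3 averaged -1.25 ± 3.10 in Aid+/+ and -1.57 ± 2.85 in Aid-/- clones (SD, n = 6 each), a difference of -0.32 (SE 1.57, 95% confidence interval -3.74 to 3.10, limma, adjusted p = 1.00). The interval spans a large change in both directions. Within experiment 979 the difference was -3.05, and on slide 3 it was 1.14 (limma, adjusted p = 0.17 and 0.737). The probes disagreed, since A_52_P196568 gave 0.42 over all clones (SE 0.80, limma, adjusted p = 0.898) and 0.10 within experiment 979, whereas A_55_P2033407 gave -0.53 and -2.17. Of the Meg3 probes, A_52_P196568 alone is annotated to another transcript. Mirg differed by -0.47 (SE 0.99, limma, adjusted p = 0.915), with -1.71 within experiment 979 and 0.84 on slide 3. Dio3 differed by 0.07 (SE 0.25, limma, adjusted p = 0.987). The median difference was 0.03 over the 8 probes and -0.01 over all probes.

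**Figure D4:**
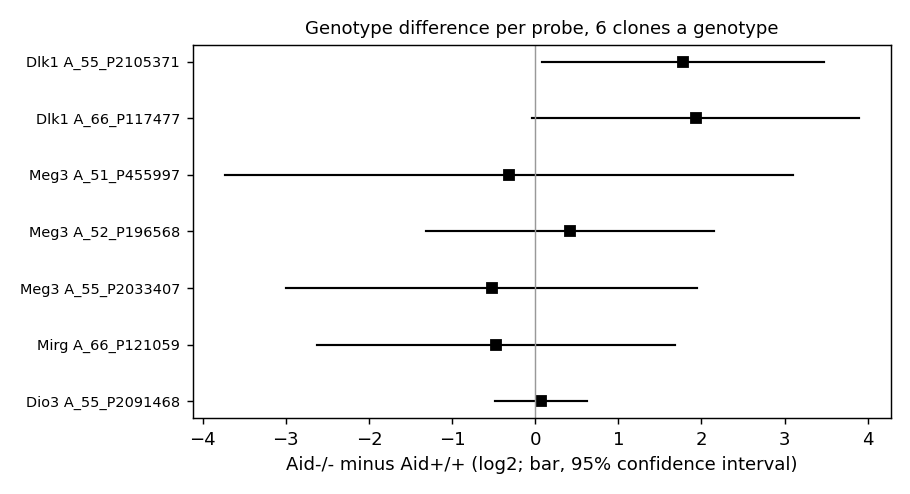
Difference of Aid-/- minus Aid+/+ clones (log2, squares) with its 95% confidence interval for the 7 cluster probes that were well above background on at least 1 array, 6 clones a genotype. The intervals of Meg3 and Mirg extend more than 1 to each side of 0.

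Whether experiment 979 and the other clones differed in their genotype effect was also tested, and no cluster probe was called, against 0.106% of all probes (limma, adjusted p under 0.05). For Meg3 the effect was -3.05 in experiment 979 and 2.42 in the other clones, a difference of -5.47 (SE 2.83, limma, adjusted p = 0.568). In this contrast 0 of the 8 probes and 9.85% of all probes had an unadjusted p under 0.05.

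No cluster probe was called between the 4 clone series either, against 4.16% of all probes (limma F test, adjusted p under 0.05), and 3 of the 8 had an unadjusted p under 0.05, against 21.9% of all probes. Dio3 came nearest (F = 7.66, adjusted p = 0.0832), with series means of -4.01 in 967B, -4.67 in 979B, -4.67 in 979F and -3.87 in the 981E1 series. The adjusted p was 0.141 and 0.170 for the Dlk1 probes, 0.425 to 0.890 for those of Meg3 and 0.589 for Mirg. The Dlk1 probe A_55_P2105371 was called without 967B4 (limma, adjusted p = 0.0385) and with normexp background correction (0.0308), and Dio3 was called when only probes well above background on at least 6 arrays were tested (0.0417).

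The genes on either side of the cluster had smaller SDs between clones than Dlk1, Meg3 and Mirg. The 23 probes of 16 flanking genes had SDs from 0.13 to 0.79 (median 0.20), and the median SD of the 8 cluster probes was 1.74. Over all 32807 probes well above background on at least 6 arrays the median SD was 0.28. None of the flanking probes was called between genotypes (lowest limma adjusted p = 0.298), against 0.0611% of all probes. Nor was any called between series (lowest limma adjusted p = 0.0882), against 4.16% of all probes. The cluster probes were not called in either test. Begain, next to Dlk1 and encoding a protein of the postsynaptic density, lay between -1.45 and -0.83 and differed by 0.02 between genotypes (limma, adjusted p = 1.00). Ppp2r5c, the regulatory subunit gene of protein phosphatase 2A beyond Dio3, differed by -0.37 to -0.16 over its 3 probes (limma, adjusted p 0.402 to 0.760).

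**Figure D5:**
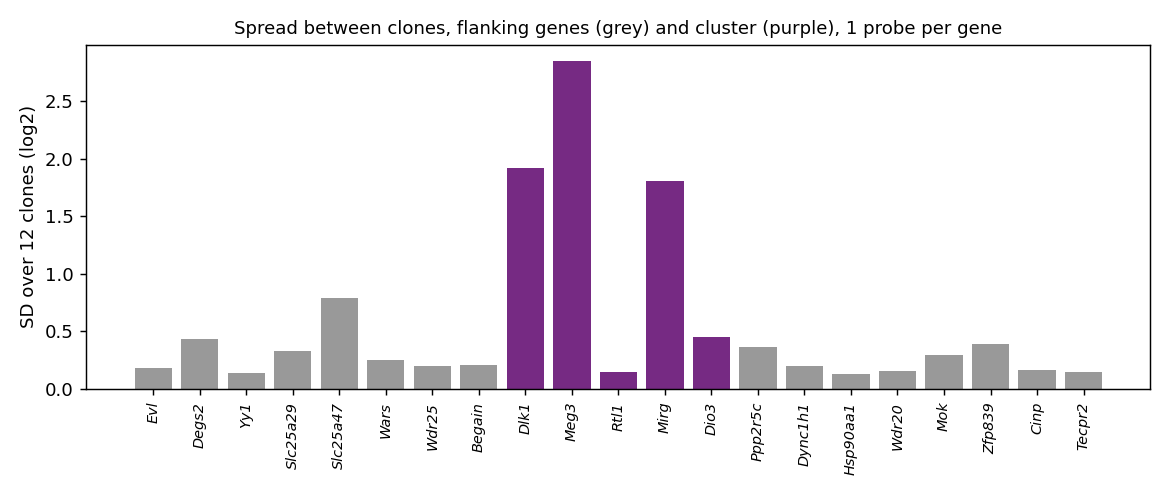
SD of the normalized signal (log2) over the 12 clones for 1 probe of each flanking gene (grey bars) and each cluster gene (purple bars). Meg3 reached 2.85 and the flanking genes at most 0.79, while Rtl1, not well above background in any clone, was at 0.15.

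Regulators of imprints were compared with Meg3 over the 12 clones. None of the 17 measured passed (r from -0.61 to 0.30, permutation, adjusted p 0.518 to 0.976). Zfp57, which protects methylated imprints, gave r = -0.28 and rho = -0.22, and r = 0.43 on slide 3. Dppa3, reported to protect the Meg3 imprint during reprogramming, gave r = 0.23 and rho = 0.15, with r = 0.76 without 967B4 and 981E4 and r = -0.73 on slide 3. The de novo and maintenance methyltransferases Dnmt3a and Dnmt1 gave r = -0.03 and -0.17, and -0.73 and 0.12 on slide 3. All 4 had an adjusted p of 0.976 for r (permutation). Tet1, encoding an enzyme that oxidises methylcytosine, was nearest, with r = -0.61 (permutation p = 0.0371, adjusted p = 0.518) and rho = -0.73 (permutation p = 0.00957, adjusted p = 0.163). Its r was -0.48 without 967B4 and 981E4, -0.60 with the series means taken off and -0.09 on slide 3. Over the 17 regulators, r with the series means taken off ran from -0.66 to 0.72.

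None of the regulators was called between genotypes, against 0.0611% of all probes (limma, adjusted p under 0.05). Between series 1 of their 25 probes was called, which is near the 4.16% of all probes. It was that of Suz12, a subunit of the Polycomb repressive complex (limma F test, adjusted p = 0.0387). It lay between 4.17 and 4.50 in the 967B and 981E1 series and between 3.74 and 3.97 in 979B and 979F.

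Outside the 8 probes, those most like each gene over the 12 clones were sought among the 32807 probes well above background on at least 6 arrays. The probe most like both Meg3 (r = 0.97) and Mirg (r = 0.98) was a long intergenic noncoding RNA probe, A_30_P01026799, whose design position was chr12:110894095-110899517 on the forward strand of mm9. It gave -0.18 in 981E4 and -6.68 in 967B4, its highest and lowest clones. A second probe of that position (A_30_P01032789) and one at chr12:110944403-110988678 (A_30_P01021613) also stood among the 5 nearest to Mirg (r = 0.95 and 0.96). No mm9 gene annotation was used, so the overlap of these positions with genes of the cluster was not determined. The other 2 nearest to Mirg, A_55_P2419296 (r = 0.98) and A_55_P2419299 (r = 0.97), were not matched to a gene. Also near to Meg3 were Pde4dip (r = 0.96), encoding a scaffold protein, and Traf1 (r = 0.96), encoding an adaptor of tumour necrosis factor receptors, with smaller ranges of -3.06 to -1.56 and -2.41 to -1.43. The fourth and the fifth were noncoding RNA probes, A_30_P01021878 (r = 0.95), designed to the reverse strand at chrX:6790023-6896433 of mm9, and A_30_P01021613 (r = 0.93).

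In the stretch from the first to the last of these positions, chosen after the values were seen, the array held 41 noncoding RNA probes at 6 design positions. Of the 26 forward-strand probes, 10 were well above background on at least 6 arrays, and their r with Mirg ran from 0.24 to 0.98 (median 0.79). Among them 5 exceeded 0.8, but the 3 that defined the stretch had been picked for their high r with Meg3 or Mirg. Of 7152 such noncoding RNA probes on the whole array, 11 (0.154%) exceeded it, these 3 included. Because of that choice the share in the stretch cannot be tested against this one. The only reverse-strand probe well above background on as many arrays (A_30_P01027471, chr12:110896603-110940553) stayed between -2.97 and -2.25 in all 12 clones and gave r = -0.23.

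The probes most like Dlk1 belonged to Vcam1 (r = 0.99), an adhesion molecule of stromal cells, Ugt1a6b, Col1a2, Rab7b and Pdgfra, the platelet-derived growth factor receptor of mesenchymal cells. Without 967B4 their r was 0.96 to 0.97. Those most like Dio3 were 2 probes of Ccdc174 and probes of Zfp715 and Nol7, and A_55_P2021854, which was not matched to a gene (r from 0.95 to 0.97).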

How the data were processed

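RNA of 12 iPS cell clones was measured on 1 one-colour Agilent array each. The deposited scanner tables hold the processed intensity of each spot, which the authors obtained with Feature Extraction. Their normalized log2 values (75th percentile of each array at 0) were deposited as well. From the intensity, log2 was taken, control and outlier spots were left out, spots of a probe were averaged and the 75th percentile was subtracted. Arrays carry no counts, so their number limits the precision. All 55681 probes were tested in limma 3.58.1 (R 4.3.3) and adjusted by Benjamini-Hochberg. Tests were checked on simulated data with 200 changed probes. Relations used two-sided permutation tests with 100000 resamples (Python 3.11.15). Where a gap over 0.5 of the range set clones of the first gene apart, the larger side was used (for fibroblast markers, of either gene). Genes were named through RefSeq (GRCm38.p6), not the mm9 build of the array.

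The members, gene lists and tests were chosen with earlier results of these data known. Named were all cluster probes, Begain and Ppp2r5c, the regulators Zfp57, Dppa3, Dnmt3a and Dnmt1, those passing a test and the 5 probes most like each gene. Tet1 and the transcripts other than the 5 genes were chosen afterwards. Alternatives were normexp background correction (offset 50), quantile scaling, the percentile of detected probes, the deposited log2 values, a filter of at least 6 arrays, trend and robust estimation, the methods' t-test, slide or series as a block, single slides or experiments and leaving out each clone. The targeted gene is not reported here.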

Additional observations from a re-analysis of the deposited data

Results flagged for a closer look

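In 14 groups of 6 clones examined (7 cluster probes in each genotype), 2 had a clone whose gap to the next, as a share of the range of the group, exceeded Dixon's 95% critical value. Both were 967B4 among the Aid+/+ clones, with -2.68 for the Dlk1 probe A_66_P117477 and -4.67 for A_55_P2105371. The gaps were 0.660 and 0.632 of the range. Chance singles out about 1 in 20 groups, and the probes measure the same gene in the same clone. The fibroblast marker sum was also lowest in 967B4 (0.95), and its part in the result was not tested.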

How the results depend on the processing

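No cluster probe was called between genotypes under any of the 26 other settings (181 values over the 7 detected probes, lowest adjusted p = 0.0739). The genotype difference changed sign with slide as a fixed block or on slide 3 alone for Meg3 (1.14 and 1.22 for A_51_P455997 and A_55_P2033407) and Mirg (0.84). Without the 3 clones of 979F it was 1.78, 1.17 and 0.80. For Dio3 it was -0.049 with normexp and -0.000699 within experiment 979. Leaving out 1 clone at a time gave -1.48 to 0.44 for A_51_P455997, -0.057 to 0.94 for A_52_P196568 and -0.085 to 0.21 for Dio3. The difference between experiments ranged from -1.76 to 0.41 for A_52_P196568 and from -0.32 to 0.046 for Dio3. The number of probes called between series was 1 with normexp, 1 with the filter of at least 6 arrays, and 0 to 1 without 1 clone. The probe was Dlk1 A_55_P2105371 with normexp (adjusted p = 0.0308) and without 967B4 (0.0385), and Dio3 under the filter (0.0417). The r with Meg3 without 1 clone was -0.36 to 0.073 for Zfp57, -0.15 to 0.30 for Dnmt3a and -0.11 to 0.51 for Dppa3. The numbers of relations passing (1, 0 and 9) were the same in all settings. No paired analysis was possible because the clone numbers name colonies and pair none across genotypes. Probes not well above background limit the lower end of Meg3 and Mirg. The cause of these changes was not tested.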
